A study of Mus musculus with 16 samples.

Results

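Transcripts of cytochrome P450 families 2, 3 and 4 were examined in the terminal ileum of mice with and without the taste receptor gene Tas1r3, on a normal diet (ND) or a Western diet (WD). Genes were taken when the deposited transcript name, without its last hyphenated part, began with Cyp2, Cyp3 or Cyp4 followed by a digit or letter, with Cyp39, Cyp46 and 5 names that held -ps left out. This gave 45 of the 23299 genes listed, of which 41 (93 of 59258 transcripts) belong to families 2, 3 and 4 and 4 (Cyp20a1, Cyp26b1, Cyp27a1 and Cyp27b1) share only the first digit and are described apart. Family 2 contributed 22 genes, family 3 contributed 7 and family 4 contributed 12. The largest subfamilies were Cyp4f with 9 genes, Cyp2c with 8, and Cyp2d and Cyp3a with 7 each.

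The mice carried the Tas1r3tm1Csz allele, a whole-body knockout backcrossed to C57BL/6, and were compared with wild-type littermates. ND was D12450J pellets with plain water. WD was the high-fat D12492 pellets (60% by the labels) with sucrose (30%) in the drinking water. Each was given for 10 weeks and in both sexes. Bulk RNA of the terminal ileum was sequenced, so that fewer cells of a type and less RNA per cell cannot be told apart. Of the 16 deposited columns, 13 libraries were used: 4 ND-fed Tas1r3+/+ (2 males and 2 females), 2 ND-fed Tas1r3-/- (both male), 4 WD-fed Tas1r3+/+ (2 males and 2 females) and 3 WD-fed Tas1r3-/- (2 males and 1 female). For the ND-fed knockout, neither female column was used, since apart from 17 and 18 of 59258 transcripts each equals a weighted mean of the 2 male columns. For the WD-fed knockout, the values of 1 female column are tied to those of the other, and their average stood as 1 library. The labels do not tie libraries to separate mice, so the p-values measure the spread between these libraries, part of which may be technical.

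Tas1r3 was checked first. Its level, in RPKM (reads relative to transcript length and library size) scaled between libraries, was 1.58, 1.64, 2.10 and 1.69 in Tas1r3+/+ mice on ND. On WD it was 6.53, 5.06, 4.23 and 6.18. The 5 Tas1r3-/- libraries were at 0.00515 or below, less than 1 read is worth, so that every library fitted its genotype label. The quantification wrote nearly all values with at most 6 significant digits, and Tas1r3 holds 3 values with more. The 45 P450 genes held 0 such values in the libraries taken as deposited, whereas 7 of 148 other genes used here did (Tas1r3, Pparg, Ppara, Adipoq, Fabp4, Fabp1 and Lyz1), and how those values arose was not tested. The deposited columns summed to 817011 to 819992 in ND-fed and 542371 to 685274 in WD-fed samples, so diet and the making of the values cannot be told apart. A read on a transcript of 1 kb was worth 0.0692 to 0.139 RPKM, which sets the precision of the low members. The male 1 library of WD-fed Tas1r3-/- mice stood furthest from the others (median Pearson r over genes 0.905, against up to 0.946). Of the marker lists, absorptive enterocyte genes summed to 655 to 9847 scaled RPKM and ileal segment genes to 894 to 10600 over the 13 libraries. Single genes of these lists were low in some libraries. Fgf15 was at 0 in ND-fed Tas1r3+/+ male 2, and Apoa4 was at 3.52 in ND-fed Tas1r3-/- male 2. The 6 listed hepatocyte markers summed to 4.04 to 14.4 scaled RPKM, with 2 of them (Fgb and F2) below RPKM 1 in every library. The 6 listed markers of the exocrine pancreas summed to 0 to 18.8, highest in the ND-fed Tas1r3+/+ female 1 library.

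Cytochrome P450 enzymes are haem proteins of the endoplasmic reticulum that insert an oxygen atom into their substrates with electrons from P450 reductase. Many Cyp2c, Cyp2d and Cyp3a enzymes act on drugs, dietary compounds and steroids, whereas Cyp4 enzymes hydroxylate the far end of fatty acids and of lipid mediators such as leukotriene B4. In the small intestine they are concentrated in the absorptive cells of the villus, where they meet ingested compounds first.

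Most of the genes lie in clusters of close relatives on GRCm38 (mm10). The 7 Cyp2d genes fall within 424 kb of chromosome 15 and 8 Cyp4f genes within 495 kb of chromosome 17, with Cyp4f18 elsewhere. The 7 Cyp3a genes lie on chromosome 5 and the 8 Cyp2c genes on chromosome 19. Relatives can exchange reads in quantification. Of the stretches of 50 bases in Cyp3a25 transcripts, 26.8% occur in another gene, 25.2% in Cyp3a59. For Cyp3a44 the share was 26.5%, 11.5% with Cyp3a41a, and Cyp3a41a itself shared 98.6%. Levels of these genes, of Cyp2c40 (60.3%), Cyp2c68 (43.3%), Cyp4f37 (19.7%) and Cyp4f16 (17.4%) are therefore uncertain, whereas Cyp3a13 shared 0%, Cyp2c55 0.514% and Cyp4f14 2.39%.

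The promoters of 3 genes are shown because Cyp3a44 and Cyp3a25 were the members that differed between the sexes and Cyp3a59 is the closest relative of Cyp3a25. They are RefSeq sequences on GRCm38.p6, from 250 bases before to 50 bases after the annotated start, and 34 of the 41 genes had an entry. Capitals mark AGGTCA, the hexamer bound by many nuclear receptors, read on either strand (TGACCT on the other). They also mark TATAAA, the letters of a TATA box, wherever these fall in the window.
Cyp3a44, chr5:145805825-145806124, minus strand: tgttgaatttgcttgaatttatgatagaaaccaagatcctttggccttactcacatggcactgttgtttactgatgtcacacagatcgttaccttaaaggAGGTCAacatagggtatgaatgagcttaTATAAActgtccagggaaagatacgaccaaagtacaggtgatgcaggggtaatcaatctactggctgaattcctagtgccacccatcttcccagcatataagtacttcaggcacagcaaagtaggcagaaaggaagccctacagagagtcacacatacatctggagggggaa
Cyp3a25, chr5:146009569-146009868, minus strand: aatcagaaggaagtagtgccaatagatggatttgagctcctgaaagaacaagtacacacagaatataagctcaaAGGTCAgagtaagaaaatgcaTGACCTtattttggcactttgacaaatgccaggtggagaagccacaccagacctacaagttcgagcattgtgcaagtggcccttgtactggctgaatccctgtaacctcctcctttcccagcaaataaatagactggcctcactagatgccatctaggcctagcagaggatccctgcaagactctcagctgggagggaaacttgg
Cyp3a59, chr5:146079008-146079307, plus strand: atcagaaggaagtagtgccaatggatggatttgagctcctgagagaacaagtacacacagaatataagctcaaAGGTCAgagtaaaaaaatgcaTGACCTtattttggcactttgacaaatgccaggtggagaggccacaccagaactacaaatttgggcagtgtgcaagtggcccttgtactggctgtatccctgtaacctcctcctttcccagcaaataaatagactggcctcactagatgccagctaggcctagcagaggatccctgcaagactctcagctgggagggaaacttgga
The Cyp3a25 and Cyp3a59 promoters matched at 95.7% of 301 aligned positions and carried AGGTCA and TGACCT at nearly equal places, with first bases at -176 and -155 in Cyp3a25 and at -177 and -156 in Cyp3a59 (the start is +1). Cyp3a44 matched Cyp3a25 at 54.9% of 326 positions and held AGGTCA at -150 and TATAAA at -122. Of the 34 promoters of the families, 6 held AGGTCA and 14 held TATAAA on either strand, compared with 16% and 14.2% of 27025 promoters. The variant AGTTCA was in 6 of 34 (14% of all) and the STAT core TTCNNNGAA in 2 of 34 (8.47% of all). These matches describe the letters of the windows and were not tied to any measurement.

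Of the 41 genes, 31 reached RPKM 1 in 2 or more libraries and were tested, and 10 did not. The 10 were below RPKM 1 in every library, with highest values from 0.202 (Cyp3a41a) to 0.907 (Cyp3a57). They were Cyp2c23, Cyp2c67, Cyp2c69, Cyp2d11, Cyp2r1, Cyp3a41a, Cyp3a57, Cyp4f15, Cyp4f39 and Cyp4x1. Cyp2r1, a vitamin D 25-hydroxylase, reached 0.643, and Cyp4f39, known for the ultra-long fatty acids of skin, reached 0.838.

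A few genes carried most of the signal. A gene level is the sum of the RPKM of its transcripts, so reads on short transcripts weigh more in ranks and shares. The leading transcript has 525 bases for Cyp2d26, 375 for Cyp2d22, 544 for Cyp4b1 and 455 for Cyp4f13, against 2221 for Cyp4f14. Cyp4f14, which hydroxylates leukotriene B4 and vitamin E, had a mean of 158 ± 83.1 scaled RPKM (SD, n = 13) and made up 30.4% of the summed level of the 41 genes. The first 3 genes (Cyp4f14, Cyp4f16 and Cyp2d26) made up 51.7%, the first 5 made up 64.6% and the first 15 made up 94%. By subfamily, Cyp4f held 56.2% of the sum, Cyp2d 12.4%, Cyp3a 9.66%, Cyp2s 4.89%, Cyp4v 4.64%, Cyp2c 3.64%, Cyp4b 3.24% and Cyp2j 3.06%. The order at the top was firm in this unit, since Cyp4f14 was above Cyp4f16 in 13 of 13 libraries and Cyp4f16 above Cyp2d26 in 12 of 13. Below that, neighbours among the first 10 changed places, with the upper gene ahead in only 7 to 10 of 13 libraries.

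**Figure D1:**
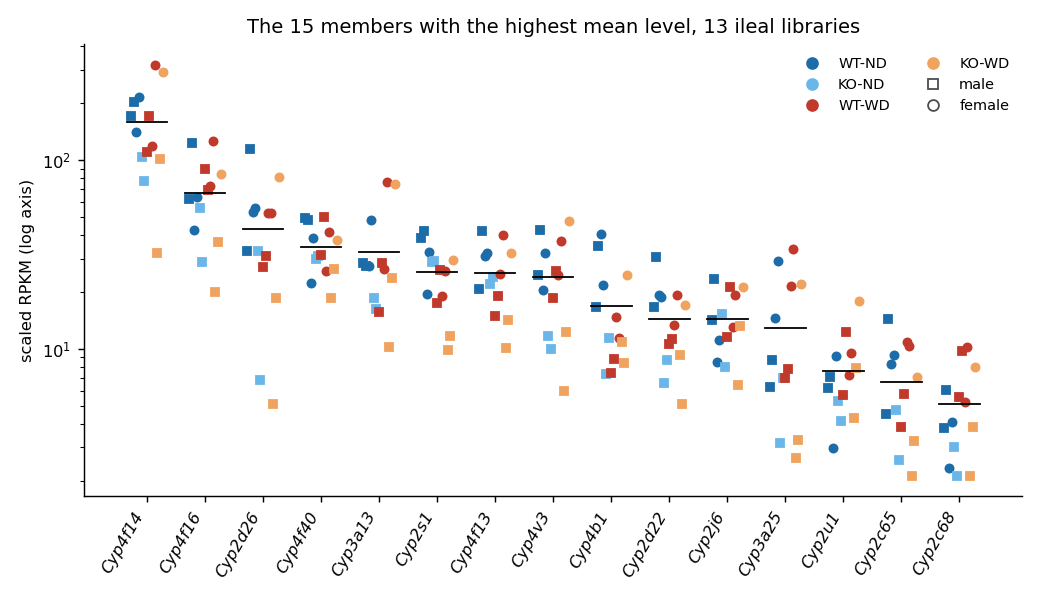
Scaled RPKM (log axis) of the 15 members with the highest mean level, 1 point per library, coloured by group, with squares for males and circles for females and a bar at the mean of the 13 libraries. Cyp4f14 lies highest with a mean of 158, and most members span several-fold between libraries of the same group.

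Among the Cyp4 fatty acid hydroxylases, Cyp4f14 was at 170, 203, 141 and 214 scaled RPKM in ND-fed Tas1r3+/+, 103 and 77.5 in ND-fed Tas1r3-/-, 110, 172, 118 and 320 in WD-fed Tas1r3+/+ and 32.3, 101 and 293 in WD-fed Tas1r3-/- libraries (males before females here and throughout). On ND both Tas1r3-/- libraries, which are male, were below the 4 Tas1r3+/+ libraries, while on WD the genotypes overlapped. Cyp4f16, in the same cluster, was at 62.1, 123, 42.5 and 63.3, then 55.5 and 28.7, then 89.1, 69.7, 72.6 and 126, and lastly 20, 37 and 84.1 in the same order of groups. Cyp4f40 ranged from 18.5 to 50 and Cyp4f13 from 10 to 41.9 scaled RPKM over the 13 libraries. Cyp4v3, the mouse counterpart of the human fatty acid hydroxylase CYP4V2, ranged from 5.98 to 47.5. Cyp4f18, the leukotriene B4 hydroxylase of leukocytes, had a mean of only 2.73, and Cyp4f17 stayed between 0.57 and 2.07.

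The Cyp2 gene with the highest mean level was Cyp2d26 (43.3 scaled RPKM), whose leading transcript is short. By reads Cyp2s1 was above Cyp2d26 in most libraries (about 1153 against 412 in ND-fed Tas1r3+/+ male 1). In others it was below (981 against 1227 in male 2 of that group). Cyp2d26 was at 32.8, 114, 52.7 and 55.7 in ND-fed Tas1r3+/+, 33.1 and 6.84 in ND-fed Tas1r3-/-, 27.1, 31.1, 52.5 and 52.4 in WD-fed Tas1r3+/+ and 5.1, 18.7 and 80.8 scaled RPKM in WD-fed Tas1r3-/- libraries. Cyp2s1, an epithelial P450 under control of the aryl hydrocarbon receptor, ranged from 9.84 to 41.9, and Cyp2d22, a mouse relative of human CYP2D6, from 5.1 to 30.8. Cyp2j6, an arachidonic acid epoxygenase of the intestine, ranged from 6.41 to 23.3, and Cyp2u1, a fatty acid hydroxylase, from 2.99 to 17.9. The leading Cyp2c gene, Cyp2c65, ranged from 2.13 to 14.4. Cyp2w1 had a mean of 0.412.
Cyp3a13, the main intestinal Cyp3a gene, ranged from 10.2 to 76.7 and was above Cyp3a25 (2.65 to 33.7) on average. Cyp3a11, the main drug-metabolising Cyp3a gene of mouse liver and a target of the pregnane X receptor, had a mean of only 1.11 (0.174 to 4.31).

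**Figure D2:**
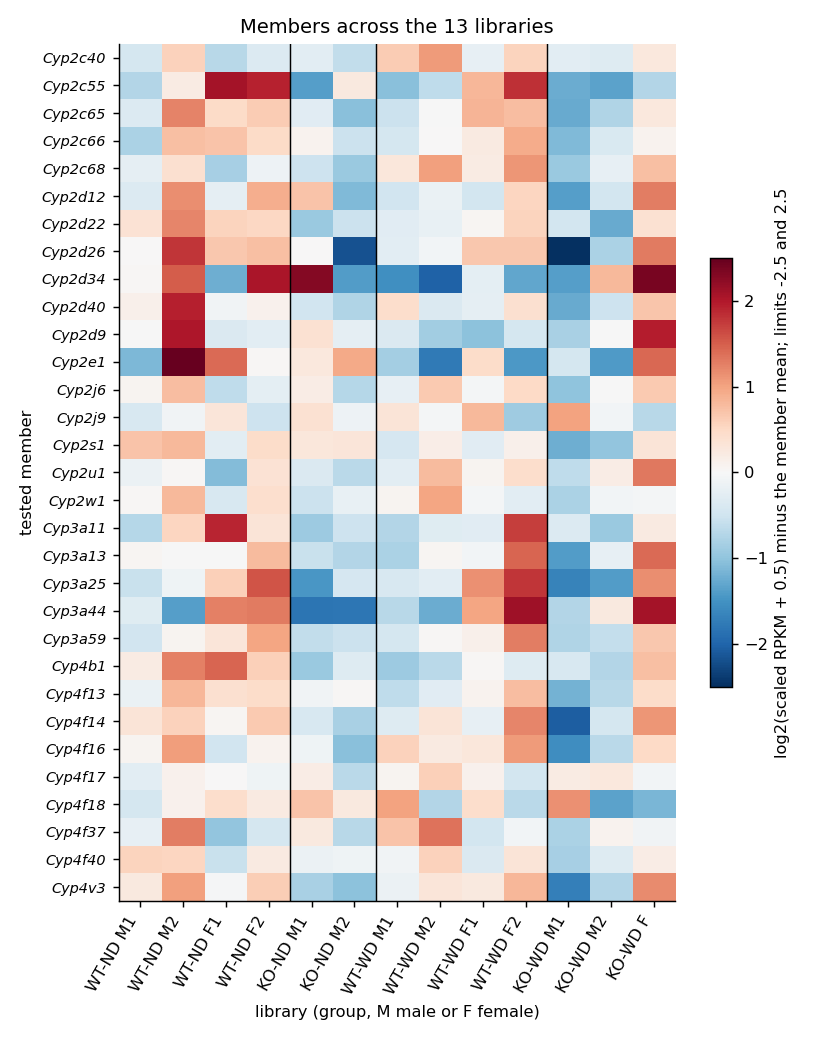
Each row is 1 of the 31 tested members and each column 1 library, with colour for log2(scaled RPKM + 0.5) minus the mean of the member over the 13 libraries. Blue dominates in the male 1 library of WD-fed Tas1r3-/- mice, where the summed level was 168, and red in the WD-fed Tas1r3+/+ female 2 library, where it was 873.

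The summed level of the 41 genes ranged from 168 to 873 scaled RPKM over the 13 libraries. On ND it was 497 to 824 in Tas1r3+/+ and 286 to 378 in Tas1r3-/- libraries, which are male. On WD it was 399 to 873 in Tas1r3+/+ and 168 to 845 in Tas1r3-/- libraries. The SD of the log2 level over the 13 libraries had a median of 0.78 for the 31 tested members and 0.43 over all tested genes. The markers of absorptive enterocytes (Vil1, Fabp2, Alpi, Apoa4, Apob, Anpep, Sis and Mttp) varied in the same libraries. Their summed level was 4601 to 6893 in ND-fed Tas1r3+/+, 1990 to 3852 in ND-fed Tas1r3-/-, 3117 to 9847 in WD-fed Tas1r3+/+ and 655 to 7119 in WD-fed Tas1r3-/- libraries. The library with the lowest enterocyte sum was also the one with the lowest P450 sum, and the library with the highest enterocyte sum had the highest P450 sum.

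The mean log2 level of these 8 markers had an SD of 0.96 over the 13 libraries. When it was subtracted in each library, the SD fell from 0.87 to 0.30 for Cyp4f14, from 0.86 to 0.33 for Cyp4v3, from 0.77 to 0.37 for Cyp4f16, from 1.25 to 0.56 for Cyp2d26 and from 0.83 to 0.52 for Cyp3a13. The SD fell for 15 of the 31 tested members, compared with 4.79% of all genes (markers left out), and these 5 are among the 15. The subtraction must raise the SD of any gene that varies little. It also rose for members that vary more, from 1.32 to 1.55 for Cyp2e1, from 0.96 to 1.05 for Cyp2d9 and from 0.80 to 1.01 for Cyp4b1. Among abundant members it rose from 0.45 to 0.74 for Cyp4f40, which varies little, and from 0.61 to 0.79 for Cyp2s1. A rise is also possible for a member that follows the markers with a smaller slope. The subtraction therefore cannot tell whether the members followed these markers as 1 set. Smooth muscle markers (Myh11, Acta2, Des, Actg2 and Cnn1) ran the other way at the extremes, with a sum of 4326 in the male 1 library of WD-fed Tas1r3-/- mice and 759 in the female 2 library of WD-fed Tas1r3+/+ mice.

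**Figure D3:**
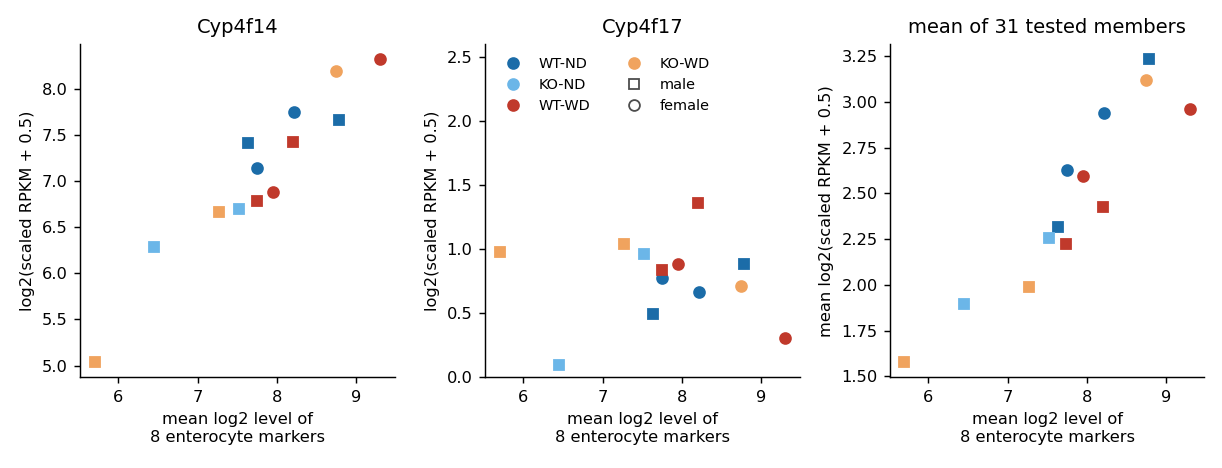
Each point is 1 of the 13 libraries, with the mean log2 level of 8 enterocyte markers on the horizontal axis and the log2(scaled RPKM + 0.5) level of Cyp4f14, of Cyp4f17 and the mean of the 31 tested members on the vertical axes. Cyp4f14 is lowest and highest in the same libraries as the markers, whereas Cyp4f17 stays within a narrow range.

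Comparisons were made with limma on log2(scaled RPKM + 0.5) over 19042 genes, and fold changes are on that scale, which understates those of low genes. Calls required an adjusted p (Benjamini-Hochberg) under 0.01 together with a fold change of at least 2, and the calls at an adjusted p under 0.05 alone are given too. In the 4 comparisons of diet and genotype and in their interaction, 0 of the 31 members were called by either rule.

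The first comparison was that of diets in Tas1r3+/+ mice. Of all genes, 0.00525% were called by the stricter rule and 0.0525% at an adjusted p under 0.05, with 0 members by either. At an unadjusted p under 0.05 there were 3 of 31 members, compared with 15.7% of all genes. The members had a median log2 fold change of -0.11 and 20 of 31 were below 0, when 50.2% of all genes were. Single libraries moved this median, which was -0.40 without WD-fed Tas1r3+/+ female 2, -0.24 without ND-fed Tas1r3+/+ male 1, -0.22 without female 1 of that group, -0.05 without its female 2, -0.02 without its male 2 and 0.01 without WD-fed Tas1r3+/+ male 1. In males alone it was -0.39 with 19 of 27 below 0. Without scaling between libraries, 27 of 31 were below 0 with a median of -0.51, when the median of all genes was -0.38.

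The lowest p in this comparison belonged to Cyp4b1, a fatty acid hydroxylase that also activates some plant toxins. Cyp4b1 was at 16.6, 35.1, 40.5 and 21.9 scaled RPKM on ND and 7.41, 8.78, 14.8 and 11.4 on WD in Tas1r3+/+ mice. The diets did not overlap, with every ND library above every WD library. The log2 fold change was -1.35 (SE 0.36, limma, adjusted p = 0.131), so it was not called. The exact two-sided permutation test over libraries gave p = 0.0286, the smallest that 70 arrangements allow. With diets that do not overlap, that test can give no other value. Without scaling, where 3441 genes passed at an adjusted p under 0.05, Cyp4b1 passed with -1.77, as did Cyp2d22 (-1.05) and Cyp2s1 (-0.96). Groups did not overlap, with WD lower, for 2 members (Cyp4b1 and Cyp2d9), compared with 6.69% of all genes.

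Adipocyte markers (Adipoq, Plin1, Cfd, Lep, Cidec and Fabp4, of which Adipoq and Fabp4 hold 1 and 3 values with extra digits) were also lower on WD on average. In the Tas1r3+/+ mice 6 of 6 had a log2 fold change below 0 (median -1.50), with 0 called by limma and 3 at an unadjusted p under 0.05. Their sum was 30.5, 226, 234 and 197 scaled RPKM on ND and 61.7, 28.7, 142 and 83.2 on WD in the Tas1r3+/+ libraries, so the diets overlapped, unlike for Cyp4b1. In the ND-fed Tas1r3-/- libraries it was 99.7 and 165, with Cyp4b1 at 7.36 and 11.4. With the mean of these markers as a covariate, which was added after the values were seen, the log2 fold change of Cyp4b1 was -0.73 (SE 0.27, limma adjusted p = 0.321). With the enterocyte marker mean as a covariate instead, it was -1.40 (limma adjusted p = 0.0392), in a fit that called 1040 genes.

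The other members with low p in this comparison were not called either. Cyp2c68 had a log2 fold change of 0.84 (SE 0.37) and Cyp2c40 of 0.73 (SE 0.33), and both share much sequence with relatives. Cyp2e1, which oxidises ethanol and other small molecules, had -1.60 (SE 0.78) and Cyp2d34 had -1.86 (SE 0.95). Cyp2e1 was at 0.709, 14.2, 6.56 and 2.19 on ND and 0.961, 0.276, 3.14 and 0.472 on WD, so the diets overlapped. Its log2 fold change was -0.23 (SE 0.56) with the adipocyte marker mean as a covariate.

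In Tas1r3-/- mice, the diets were compared between 2 male ND libraries and 3 WD libraries of which 1 is female. By the stricter rule 0% of all genes were called, with 0.00525% at an adjusted p under 0.05, and 0 members by either. At an unadjusted p under 0.05 there were 2 members, compared with 5.31% of all genes. The median log2 fold change of the members was 0.16 and 11 of 31 were below 0, when 50.5% of all genes were. The direction of this median was not stable, since it was -0.09 with 18 below 0 without scaling, and -0.30 with 20 of 27 below 0 in males alone. It was -0.29 without the WD-fed Tas1r3-/- female and -0.05 without ND-fed Tas1r3-/- male 2, but 0.48 without WD-fed Tas1r3-/- male 1 and 0.38 without ND-fed Tas1r3-/- male 1.

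Cyp3a44, which is female-predominant in mouse liver, had the lowest p of these, with values of 0.0441 and 0.0518 on ND and 0.661, 1.79 and 7.63 scaled RPKM on WD. These correspond to about 1 and 1 reads on ND and to 12, 43 and 102 on WD. Cyp3a44 was the 1 member whose WD libraries all lay above the ND libraries, compared with 10.3% of all genes. Its log2 fold change was 2.35 (SE 1.06, limma adjusted p = 0.928) and 1.59 in males alone (limma adjusted p = 0.286), values that depend on the pseudocount because the ND libraries hold so few reads. Cyp2s1 had -0.92 (SE 0.42), Cyp4f18 -0.93, Cyp2u1 0.81 and Cyp2c68 0.60, with 0 of them called.

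Genotypes were then compared on ND. Most members were lower in the Tas1r3-/- libraries, with 29 of 31 below 0 and a median log2 fold change of -0.57, when 49.6% of all genes were below 0. By the stricter rule 0% of all genes were called, and at an adjusted p under 0.05 it was 0.00525%, with 0 members by either. At an unadjusted p under 0.05 there were 5 members, all lower, compared with 4.55% of all genes. For 8 members every Tas1r3-/- library was below every Tas1r3+/+ library, compared with 13.7% of all genes. These were Cyp2d22, Cyp2d40, Cyp3a13, Cyp3a44, Cyp3a59, Cyp4b1, Cyp4f14 and Cyp4v3. Sex is part of this contrast, since both Tas1r3-/- libraries are male. In males alone 25 of 27 members were below 0 (median -0.67), with sex as a covariate 27 of 31 were (median -0.39), and without the male 2 library of ND-fed Tas1r3+/+ mice 22 of 29 were (median -0.36).

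Cyp2d22 was at 16.7, 30.8, 19.2 and 18.8 in ND-fed Tas1r3+/+ and 6.55 and 8.74 scaled RPKM in ND-fed Tas1r3-/- libraries. Its log2 fold change was -1.40 (SE 0.40, limma unadjusted p = 0.00401, adjusted p = 0.901), and it was -1.52 in males alone. Cyp4b1 was at 7.36 and 11.4 in the Tas1r3-/- libraries, below the 4 ND-fed Tas1r3+/+ values given above. Its log2 fold change was -1.50 (SE 0.44, limma adjusted p = 0.901), and it was -1.43 with the adipocyte marker mean as a covariate. The other members among the 5 were Cyp4v3 (-1.38), Cyp2c65 (-1.16) and Cyp2d26 (-1.89). With 4 libraries against 2, an exact permutation test cannot go below p = 0.0667.

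On WD most members were again lower in the Tas1r3-/- libraries on average. The median log2 fold change was -0.46 with 23 of 31 members below 0, when 52% of all genes were below 0. By the stricter rule 0.0105% of all genes were called and 0.0263% at an adjusted p under 0.05, with 0 members by either. At an unadjusted p under 0.05 there was 1 member, compared with 2.56% of all genes. This was Cyp4f16, with a log2 fold change of -1.12 (SE 0.46, limma adjusted p = 1). Cyp2c68 (-0.78), Cyp2c65 (-0.85), Cyp2c55 (-1.34) and Cyp2d34 (1.88) had the next lowest p. The male 1 library of WD-fed Tas1r3-/- mice weighed on this comparison, because without it the median was -0.18 with 19 of 31 below 0. Without the female of that group it was -0.85 with 27 of 30 below 0.

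Enterocyte markers moved with both genotype comparisons. All 8 were below 0 on ND (median log2 fold change -1.01) and on WD (median -0.59), with 0 called by limma and 0 and 2 at an unadjusted p under 0.05. With their mean as a covariate, added after the values were seen, the median of the members was 0.00 on ND with 15 of 31 below 0, and 0.01 on WD with 15 of 31 below 0. In that fit the log2 fold change on ND was -1.05 (SE 0.38, limma adjusted p = 0.988) for Cyp2d22 and -1.20 (SE 0.46, limma adjusted p = 0.988) for Cyp4b1. Smooth muscle markers were above 0 in both, 5 of 5 on ND (median 0.68) and 5 of 5 on WD (median 0.43), with 0 called by limma and 0 at an unadjusted p under 0.05.

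**Figure D4:**
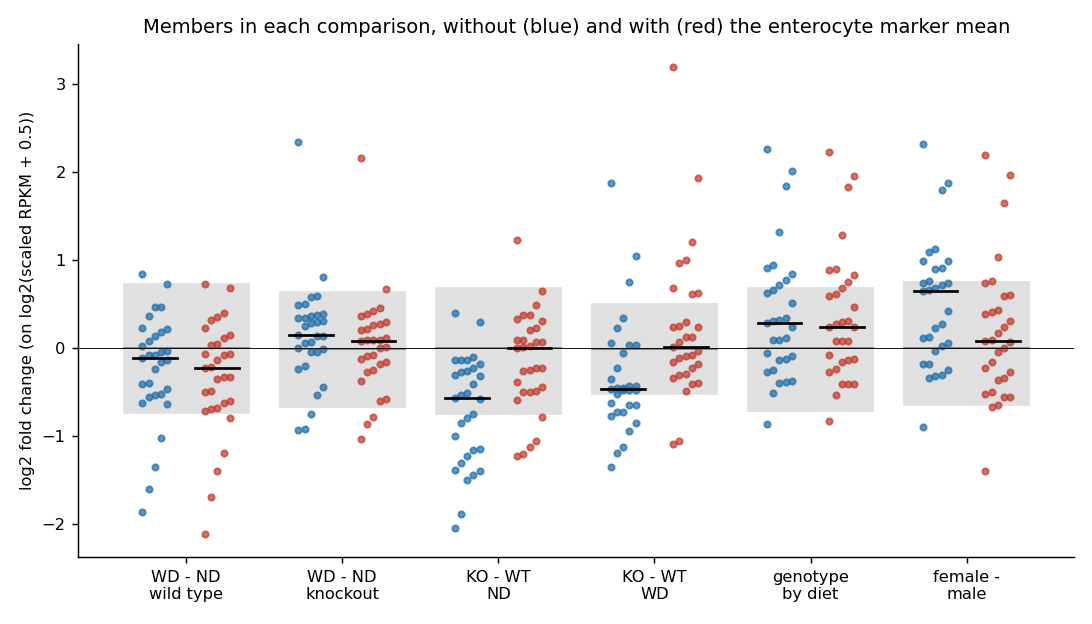
Each point is the log2 fold change of 1 of the 31 tested members in 1 comparison, in blue as fitted and in red with the enterocyte marker mean as a covariate, with black bars at the medians and grey bands for the 5th to 95th percentile of all 19042 genes. The blue medians lie at -0.57 and -0.46 in the genotype comparisons and at 0.65 between the sexes, and the red ones at 0.00, 0.01 and 0.08.

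The interaction of genotype and diet asks whether the diets differ by another amount in Tas1r3-/- than in Tas1r3+/+ mice. By either rule 0% of all genes and 0 members were called, and 1 member passed an unadjusted p under 0.05, compared with 1.41% of all genes. This was Cyp4b1, with an interaction of 1.84 on the log2 scale (SE 0.59, limma unadjusted p = 0.00864, adjusted p = 1). It had a log2 fold change between diets of -1.35 in Tas1r3+/+ and 0.49 (SE 0.47) in Tas1r3-/- mice, where ND was at 7.36 and 11.4 and WD at 10.8, 8.41 and 24.6 scaled RPKM. The diets overlapped in Tas1r3-/- mice. Cyp2d22 (0.92), Cyp3a44 (2.27), Cyp2d9 (1.32) and Cyp2d34 (2.02) had the next lowest p. The median over members was 0.28 and 11 of 31 were below 0, when 49% of all genes were. This direction was not stable. It was -0.04 with 16 of 27 below 0 in males alone and -0.14 with 21 of 30 below 0 without the WD-fed Tas1r3-/- female, and 0.05 with sex as a covariate. Leaving out 1 of the other libraries gave medians from 0.08 (without ND-fed Tas1r3-/- male 2) to 0.63 (without WD-fed Tas1r3-/- male 1).

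The clearest differences were those between the sexes. Females were compared with males (5 libraries against 8) with the 4 groups in the model, so that ND-fed Tas1r3-/- mice, without a female, added nothing to the contrast. Cyp3a44 and Cyp3a25 were higher in females at an adjusted p under 0.05, a rule that called 0.252% of all genes in either direction and 0.0945% of all genes as higher in females. By the stricter rule 0 members and 0.0368% of all genes were called. At an unadjusted p under 0.05 there were 11 members, 10 of them higher and 1 lower in females, compared with 19% of all genes. The median log2 difference of the members was 0.65 with 8 of 31 below 0, when 49.5% of all genes were. It rested in large part on the WD-fed Tas1r3-/- female, without which it was 0.14 with 12 of 30 below 0.

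Cyp3a44 was at 4.13 and 4.24 scaled RPKM in ND-fed Tas1r3+/+ females against 1.07 and 0.248 in males. On WD it was at 3.35 and 7.94 in Tas1r3+/+ females against 0.704 and 0.32 in males, and at 7.63 in the Tas1r3-/- female against 0.661 and 1.79 in males. Females averaged 5.46 ± 2.16 (SD, n = 5) and males 0.611 ± 0.593 (SD, n = 8), and the 5 females lay above the 8 males without overlap. The share of all genes with such a separation was not counted. The log2 difference was 2.32 (SE 0.29), a 4.98-fold higher fitted level in females (limma adjusted p = 0.0107). It was 2.11, 2.52 and 2.32 within ND-fed Tas1r3+/+, WD-fed Tas1r3+/+ and WD-fed Tas1r3-/- mice.

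Cyp3a25 was at 14.5 and 29.2 scaled RPKM in ND-fed Tas1r3+/+ females against 6.24 and 8.77 in males. On WD it was at 21.4 and 33.7 against 7.04 and 7.77 in Tas1r3+/+ mice, and at 21.9 against 2.65 and 3.28 in Tas1r3-/- mice. The lowest female, at 14.5, lay above the highest male, at 8.77, again without a count over all genes. Females averaged 24.1 ± 7.46 (SD, n = 5) and males 5.73 ± 2.36 (SD, n = 8), with a log2 difference of 1.88 (SE 0.28, 3.68-fold, limma adjusted p = 0.0239).

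These calls rested on few libraries. Over 24 alternatives the adjusted p of Cyp3a44 ran from 0.00355 to 0.108 and was under 0.05 in 22, and the call was lost without the only WD-fed Tas1r3-/- female (log2 difference 2.33) and with all 16 columns as labelled (1.73). That of Cyp3a25 ran from 0.0147 to 0.341 and was under 0.05 in 16, and the call was lost without any of 6 libraries (ND-fed Tas1r3+/+ female 2, WD-fed Tas1r3+/+ males 1 and 2 and female 2, WD-fed Tas1r3-/- male 2 and the female), where the log2 difference was 1.61 to 1.93, and with all 16 columns (1.47). In all 24 alternatives both genes were higher in females.

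**Figure D5:**
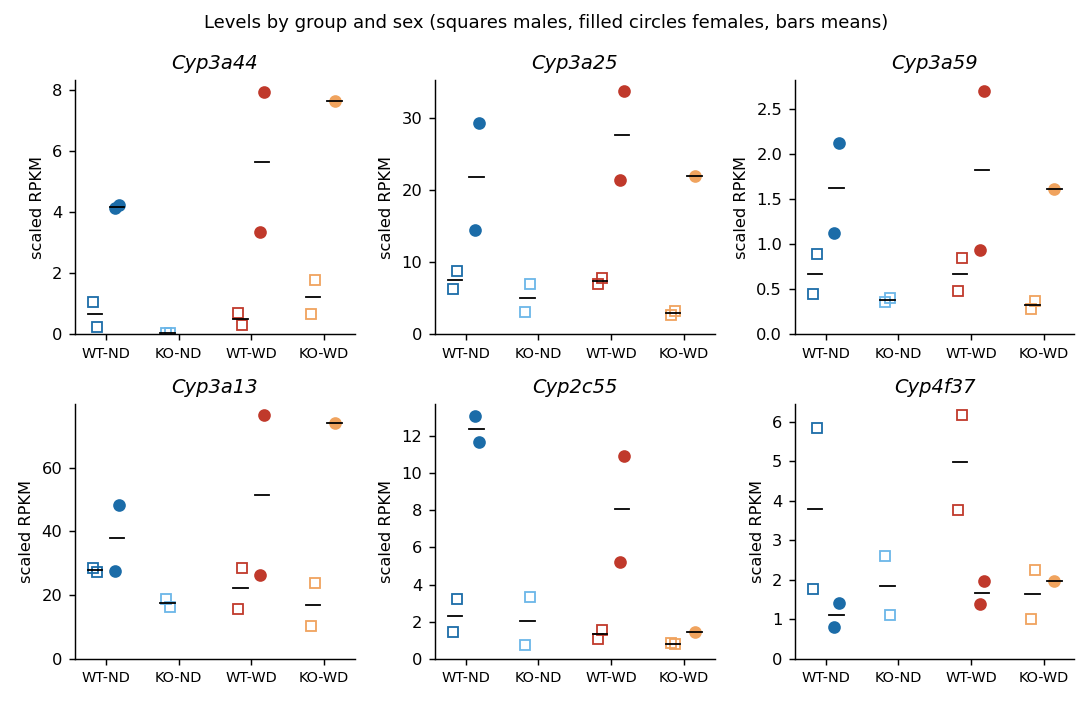
Scaled RPKM of 6 members by group, with open squares for males, filled circles for females and bars at the mean of each sex. In Cyp3a44, Cyp3a25, Cyp3a59 and Cyp2c55 every female lies above the males of its own group, and in Cyp2c55 the WD-fed Tas1r3-/- female is at only 1.44.

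Of the members, 4 had every female above every male within each of the 3 groups with both sexes, compared with 4.05% of all genes. These were Cyp3a44, Cyp3a25, Cyp3a59 and Cyp2c55. For each the exact two-sided permutation test of sex within groups gave p = 0.00926, the smallest that 108 arrangements allow. Such an ordering already puts the labels at the extreme of that test, so this p restates how the 4 were picked. Cyp3a59 was at 1.13 and 2.12 scaled RPKM in ND-fed Tas1r3+/+ females against 0.448 and 0.886 in males, with a log2 difference of 0.99 (SE 0.26, limma adjusted p = 0.0864). Its values may hold reads of Cyp3a25, with which it shares 26.8% of its stretches of 50 bases. Cyp2c55, which converts arachidonic acid and shares almost no such stretch with another gene, was at 13.1 and 11.7 in ND-fed Tas1r3+/+ females against 1.43 and 3.23 in males. On WD it was at 5.24 and 10.9 against 1.06 and 1.58 in Tas1r3+/+ mice, and at 1.44 against 0.866 and 0.778 in Tas1r3-/- mice. Its log2 difference was 1.80 (SE 0.37, limma adjusted p = 0.0608), and it was 2.26, 2.17 and 0.56 in these 3 groups, between which the difference was not tested. The next lowest p belonged to Cyp3a13, with a log2 difference of 1.10 (SE 0.37, limma adjusted p = 0.152). Its females and males overlapped in both groups of Tas1r3+/+ mice. The 1 member lower in females at an unadjusted p under 0.05 was Cyp4f37 (-0.90, SE 0.37, limma adjusted p = 0.217).

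No cell type marker was called between the sexes, but lists of them leaned to a side. The 8 enterocyte markers were all above 0 (median log2 difference 0.71, 0 called by limma, 1 at an unadjusted p under 0.05), with sums of 655 to 6847 in males and 4132 to 9847 in females. The 6 adipocyte markers were all above 0 (median 1.43, 0 called by limma, 5 at an unadjusted p under 0.05), and the 5 crypt and Paneth markers were all below 0 (median -0.69, 0 called by limma, 4 at an unadjusted p under 0.05). All 5 ileal segment markers were above 0 (median 1.08, 3 at an unadjusted p under 0.05), as were 5 of 7 leukocyte markers (median 0.60, 3 at that p). All 5 smooth muscle markers were below 0 (median -0.25, 0 at that p). Of all genes, 19% passed that p. With the enterocyte mean as a covariate, the median over members was 0.08, Cyp3a44 differed by 2.20 (limma adjusted p = 0.0216) and Cyp3a25 by 1.65 (limma adjusted p = 0.0284). Cyp4f37 was then lower in females by -1.39 (limma adjusted p = 0.0284), and 157 genes were called in that fit. With the adipocyte mean as a covariate Cyp3a44 differed by 2.84 (limma adjusted p = 0.0461) and Cyp3a25 by 1.60 (limma adjusted p = 0.341).

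The genes that act with P450 enzymes were examined as lists. Of 20 transcription factors that control P450 genes, 19 were tested and 0 were called by either rule in any of the 6 comparisons. Hnf4a, a regulator of intestinal and liver genes, was at 67.1 to 238 scaled RPKM over the 13 libraries and the pregnane X receptor gene Nr1i2 at 9.48 to 40.1. The constitutive androstane receptor gene Nr1i3 was at 2.19 to 4.41 and the aryl hydrocarbon receptor gene Ahr at 1.34 to 3.5. The medians of this list were -0.31 between diets in Tas1r3+/+ mice, -0.32 between genotypes on ND and 0.25 between the sexes. At an unadjusted p under 0.05 there were 3, 2 and 5 of the 19 in these comparisons, where 15.7%, 4.55% and 19% of all genes passed. Pparg, a fatty acid receptor, had a log2 fold change of 2.10 between genotypes on WD (SE 0.39, limma adjusted p = 0.255), and Ppara, which controls many Cyp4 genes in liver, had 1.72 (SE 0.36, limma adjusted p = 0.524). Pparg holds 7 and Ppara 6 of the values with extra digits.

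Of 18 redox partners and haem genes, all were tested and 0 were called in the 6 comparisons. At an unadjusted p under 0.05 there were 2 of 18 between diets in Tas1r3+/+ mice and 4 between the sexes, where 15.7% and 19% of all genes passed. Por, the P450 reductase, was at 26.1 to 58.1 scaled RPKM, and Alas1, the first enzyme of haem synthesis, at 30.9 to 91.7. Of 31 conjugating enzymes, hydrolases and efflux transporters, 28 were tested. Their median log2 fold change between genotypes was -0.52 on ND and -0.55 on WD, with 0 called by limma. In each, 25 of 28 were below 0, when 49.6% and 52% of all genes were. At an unadjusted p under 0.05 there were 2 and 3 of the 28, where 4.55% and 2.56% of all genes passed. Between the sexes 24 of 28 were above 0 (median 0.30), when 49.5% of all genes were below 0. The carboxylesterase Ces2a passed an adjusted p under 0.05, with a log2 difference of 1.62 (SE 0.27, limma adjusted p = 0.0403), where 0.0945% of all genes were called as higher in females. Of 20 other genes of arachidonic acid and eicosanoids, 16 were tested and 0 called, with a median of 0.25 between genotypes on ND. At an unadjusted p under 0.05 there were 0 to 3 of 16 in the 6 comparisons, where 1.41% to 19% of all genes passed.

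Of the 4 genes outside families 2, 3 and 4, Cyp27a1, the sterol 27-hydroxylase, was at 16.5 to 46.7 scaled RPKM and Cyp27b1, which activates vitamin D, was not tested for its low level. Cyp26b1, which degrades retinoic acid, had a mean of 1.51. Cyp20a1, a P450 without a firmly assigned substrate, was at 2, 2, 1.88 and 1.93 in ND-fed and 4.99, 4.34, 4.87 and 2.31 in WD-fed Tas1r3+/+ libraries. The diets did not overlap, with WD higher, as for 3.68% of all genes. The log2 fold change of Cyp20a1 was 0.87 (SE 0.29, limma adjusted p = 0.189, so not called). With the enterocyte marker mean as a covariate it was 0.94 (limma adjusted p = 0.0388), in a fit that called 1040 genes. Among the P450 genes of further families, 7 of the 10 listed were tested and 0 called by limma in the 6 comparisons. At an unadjusted p under 0.05 there were 0 to 2 of these 7, where 1.41% to 19% of all genes passed.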

How the data were processed

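The authors sequenced ileal RNA on the Ion Proton platform, mapped it to mm10 with STAR in Partek Flow and deposited values per transcript. The name of the deposited table speaks of raw counts, but the values are not whole numbers. They were taken here as RPKM, a unit that the text of the paper and of its supplement does not name. Taken as RPKM, the values as deposited by the authors had already been divided by transcript length and library total. The authors name DESeq2 for their own tests. Here transcripts were summed to genes, and the table and the per-sample files differed by at most 4.99e-08. The test took genes that reached RPKM 1 in 2 or more of 13 libraries. Scaling used trimmed means of the log ratios between libraries (30% of ratios and 5% of levels trimmed at each end). A pseudocount of 0.5 was added before taking log2. The model was limma's (version 3.58.1, R version 4.3.3) with its trend option and 1 term per group, and p-values were adjusted by Benjamini-Hochberg over 19042 genes. The remaining tables came from Python (3.11.15) with scipy (1.17.1), pandas (2.3.3) and numpy (2.4.6). Since the values are not read counts, no count model was used. The procedure was tested on simulated data with independent noise of the same SD for all genes. That does not cover variation that many genes share between libraries, or members that vary more than most genes.

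The genes and lists were chosen with earlier results of these data known. The text names the 15 members with the highest mean level, the highest of each subfamily, every called member, and, where fewer than 5 were called, the 5 with the lowest p. Alternatives were other pseudocounts, filters and scalings, sex as a covariate, a replicate block, 1 sex alone, the compared groups alone, all 16 columns, another threshold and each library left out in turn. Use of the enterocyte or adipocyte marker mean as a covariate and of females alone were added after the data were seen. Positions are those of GENCODE M21 on GRCm38.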

Additional observations from a re-analysis of the deposited data

Results flagged for a closer look

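Each member was examined in both groups of 4 libraries for a library far from the other 3, by the gap to its nearest neighbour as a share of the range of the group. Of 62 groups, 3 exceeded Dixon's 95% critical value for groups of 4, and chance alone flags about 1 in 20. In ND-fed Tas1r3+/+ mice, the male 2 library was far above the others for Cyp2d40 (gap 0.895 of the range, 5.02 scaled RPKM against 1.07 for the next library) and for Cyp2d9 (0.849, 3.64 against 0.521). Both genes lie in the Cyp2d cluster. In the same group, the female 2 library was far above the others for Cyp3a13 (0.93, 48.3 against 28.5 scaled RPKM).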

How the results depend on the processing

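In the 5 comparisons of diet, genotype and their interaction, 0 members were called under each alternative run by the stricter rule. At an adjusted p under 0.05, Cyp4b1, Cyp2d22 and Cyp2s1 passed between diets in Tas1r3+/+ mice without scaling, and Cyp4b1 with the enterocyte marker mean as a covariate. Between the sexes, where 0 were called, there was 1 call (Cyp3a44) with a pseudocount of 1, without scaling, with RLE scaling and with upper quartile scaling, and 2 at an adjusted p under 0.05 with no minimum fold change. Leaving out 1 library at a time gave 0 to 1, with 1 when ND-fed Tas1r3+/+ male 1 or WD-fed Tas1r3+/+ female 1 was left out; the causes were not tested. Of the fold changes of named members, the difference of Cyp2c68 between genotypes on WD was 0.09 in females alone, an alternative added after the data were seen, against -0.78. No direction of a named and called member reversed. The labels do not say that a replicate number marks a shared animal or batch, and the deviations of same-numbered libraries correlated at -0.07 to 0.47. With the replicate number as a block, 0 members were called in these 5 comparisons and Cyp4b1 had a log2 fold change of -1.35 between diets in Tas1r3+/+ mice. Depth limits the lowest members, since the ND-fed Tas1r3-/- values of Cyp3a44 rest on about 1 read each.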
